A study of Mus musculus with 12 samples.

Results

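The effect of lipopolysaccharide (LPS) was examined in bone marrow-derived macrophages (BMDM) that all received human β-defensin 3 (hBD3). Macrophages treated with LPS plus hBD3 for 1 h (3 arrays) were compared with macrophages treated with hBD3 alone for 1 h (3 arrays), which are 6 of the 12 arrays of the series. The other 6 arrays, 3 of untreated cells and 3 of cells given LPS without the peptide, served as the measure of the LPS effect in the absence of hBD3. The cells were primary macrophages of Balb/c mice, grown from femoral marrow in M-CSF and kept without M-CSF overnight before treatment, and the design gives macrophages of 3 mice for each treatment. LPS was used at 50 ng/mL and hBD3 at 5 μg/mL. The sample labels write the hBD3 dose in mg/ml and state no dose for the combination. Age and sex of the mice are not given in the sources used here.

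LPS, a component of the outer membrane of Gram-negative bacteria, is sensed on macrophages by TLR4 with its partners MD-2 and CD14. The adaptors MyD88 and TRIF pass the signal on to NF-κB, MAP kinases and interferon regulatory factors. Within the first hour this signal typically induces genes whose promoters are already accessible: chemokines and TNF-α, transcription factors of the Fos and Egr families, and the inhibitors that later shut the pathway down. hBD3 is a cationic host defense peptide with antimicrobial and immunomodulatory activity.

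No probe was called as differentially expressed between LPS plus hBD3 and hBD3 alone, but most of the 9 probes with a log2 fold change above 1 belonged to genes of the early LPS response. They were of Cxcl1, Tnf, Cxcl2, Egr1, Nfkbiz, Socs3 and Il1b, beside 1 each of Actb and Mgp. The chemokine genes Cxcl1 and Cxcl2, Tnf, the transcription factor gene Egr1, and the feedback genes Nfkbiz and Socs3 were 2.24-fold to 4.44-fold brighter with LPS plus hBD3 than with hBD3. The same genes differed 10.3-fold to 26.9-fold between LPS and untreated cells. Of 25697 probes, 0 higher (0%) and 0 lower (0%) passed an adjusted p of 0.05, and the lowest adjusted p was 0.336 (limma on all 12 arrays, Benjamini-Hochberg). At an unadjusted p under 0.05 there were 574 higher and 397 lower probes, where 1285 would be expected by chance. With the replicate number as a block 0 probes passed, at a lowest adjusted p of 0.0589 (limma). At an unadjusted p under 0.05 there were then 853 higher and 667 lower probes, together more than the 1285 expected by chance. Log fold changes (log FC) are given in log2 units, and a positive value means a higher signal with LPS plus hBD3.

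The promoters of the 3 genes with the largest log FC that have a window in the RefSeq table (build GRCm38.p6) are shown. All 3 are textbook NF-κB target genes. Each window runs from 250 bases before to 50 bases after the annotated gene start and is written 5′ to 3′ on the strand of the gene. Capitals mark matches of the NF-κB consensus on either strand. The Cxcl1 window is chr5:90890995-90891294 on the plus strand, the Cxcl2 window chr5:90903649-90903948 on the plus strand, and the Tnf window chr17:35201958-35202257 on the minus strand.
Cxcl1: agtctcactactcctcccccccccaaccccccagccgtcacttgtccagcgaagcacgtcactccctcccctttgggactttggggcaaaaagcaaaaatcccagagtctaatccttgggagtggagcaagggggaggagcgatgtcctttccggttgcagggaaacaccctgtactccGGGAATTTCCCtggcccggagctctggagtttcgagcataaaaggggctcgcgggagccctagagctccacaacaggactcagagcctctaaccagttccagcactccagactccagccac
Cxcl2: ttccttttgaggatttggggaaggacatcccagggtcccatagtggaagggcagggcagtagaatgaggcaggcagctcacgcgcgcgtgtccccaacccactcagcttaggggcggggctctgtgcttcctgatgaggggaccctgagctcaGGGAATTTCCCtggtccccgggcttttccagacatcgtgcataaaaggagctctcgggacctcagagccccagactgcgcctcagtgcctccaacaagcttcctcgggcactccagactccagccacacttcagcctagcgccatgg
Tnf: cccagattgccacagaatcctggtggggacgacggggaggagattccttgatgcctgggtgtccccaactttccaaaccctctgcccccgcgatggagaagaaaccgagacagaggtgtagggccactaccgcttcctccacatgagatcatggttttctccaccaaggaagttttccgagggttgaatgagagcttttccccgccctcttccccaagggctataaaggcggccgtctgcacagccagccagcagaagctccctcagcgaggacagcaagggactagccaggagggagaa
In Cxcl1 the capitals are a pair of overlapping matches on opposite strands at positions -71 to -61, and in Cxcl2 the same letters stand at positions -97 to -87, with the first transcribed base as position 0. The Tnf window holds 0 matches. The window of Socs3, which was also examined and is not shown, holds 0 matches as well. Among genes of the early cytokine and chemokine list 10 of the 19 with a window (52.6%) held an NF-κB match, against 8.18% of all 27025 genes with a window. The corresponding numbers were 6 of 20 (30%) for immediate early transcription factors and 5 of 22 (22.7%) for feedback inhibitors. The AP-1 motif TGANTCA, searched on both strands, was in 6 of 19, 0 of 20 and 3 of 22 windows of these lists and in 7.93% of all windows. The palindromic cAMP response element was in 0, 0 and 3 of them and in 1.88% of all windows, and the CArG box was in 0, 0 and 1 and in 1.57%. Motifs were counted separately, also where they overlapped. A match describes these letters only.

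Detection was alike on the arrays of the compared groups. Between 9236 and 9836 probes per array were detected (detection p under 0.01), the median signal was 44.1 to 57.12 and arrays of one group correlated at a mean r of 0.987 to 0.992. The upper end of the signals differed more: the 95th percentile was 737.8 to 1484.1 on the hBD3 arrays, highest on hBD3 replicate 3, and 614 to 1095.5 on the LPS plus hBD3 arrays. Of the other arrays, LPS replicate 1 stood apart (mean r with its group 0.967). All 11 measured macrophage markers were detected on all 6 arrays. Of the markers of other cells, 0 of 8 for lymphocytes, 0 of 8 for dendritic cells, 0 of 8 for stromal and erythroid cells and 1 of 13 for neutrophils were detected on all 6. In RNA from whole wells, a change in the number of responding cells and a change in RNA per cell cannot be told apart.

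**Figure D1:**
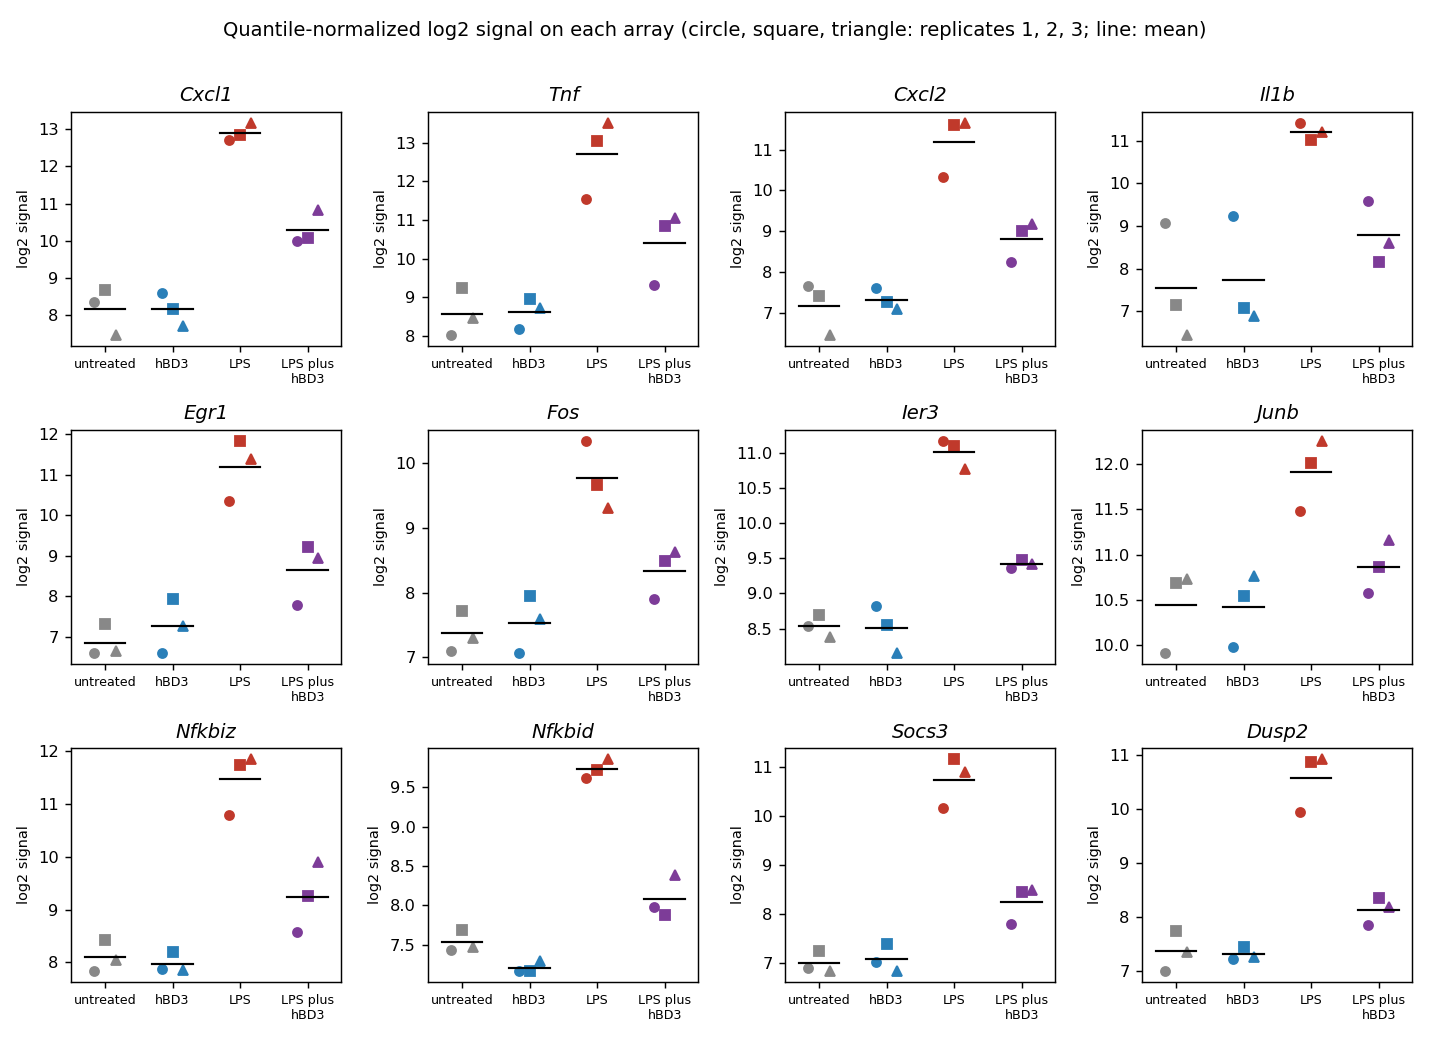
Quantile-normalized log2 signal (vertical axis) of 12 early response genes on each of the 12 arrays, grouped by treatment on the horizontal axis; circles, squares and triangles are replicates 1, 2 and 3 and lines are group means. In every panel the mean of LPS plus hBD3 lies above that of hBD3 and below that of LPS, as for Cxcl1 at 8.15 (hBD3), 10.30 (LPS plus hBD3) and 12.91 (LPS).

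Cxcl1, which encodes a neutrophil-attracting chemokine, had the largest log FC of any gene by its brightest probe. The log2 signal was 8.59, 8.17 and 7.71 on the hBD3 arrays and 9.98, 10.08 and 10.84 on the LPS plus hBD3 arrays, so that the groups did not overlap. The log FC was 2.15 ± 0.33 (SE, adjusted p = 0.392), against 4.75 for LPS without the peptide. Cxcl2, a second chemokine of this kind, was at 7.59, 7.26 and 7.08 with hBD3 and at 8.23, 9.01 and 9.17 with both (log FC 1.49 ± 0.40). Here too all LPS plus hBD3 arrays were above all hBD3 arrays. Tnf encodes the inflammatory cytokine TNF-α and was at 8.18, 8.96 and 8.74 with hBD3 and at 9.33, 10.84 and 11.05 with LPS plus hBD3 (log FC 1.78 ± 0.56). The lowest LPS plus hBD3 array for Tnf and Cxcl2 was replicate 1, as it was among the LPS arrays (11.54 against 13.05 and 13.51 for Tnf).

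Il1b, the gene of the cytokine IL-1β, differed between replicates also in cells without LPS. With hBD3 alone it was at 9.23, 7.09 and 6.88 and with LPS plus hBD3 at 9.60, 8.15 and 8.61, so that the groups overlapped through hBD3 replicate 1. Untreated replicate 1 was high as well (9.07 against 7.14 and 6.45). The log FC was 1.05 ± 0.72. It was 1.80 without hBD3 replicate 1, 0.63 without hBD3 replicate 3 and 0.65 without LPS plus hBD3 replicate 1. Each array pair of the same replicate number was higher with LPS plus hBD3, by 0.37, 1.07 and 1.73. Gdf15, a stress-induced cytokine of the TGF-β family, was at 6.63, 7.10 and 6.76 against 6.83, 7.44 and 7.38 (log FC 0.39 ± 0.23). Tnfsf9, the 4-1BB ligand gene, was detected on 1 of 3 hBD3 arrays and 2 of 3 LPS plus hBD3 arrays, with a log FC of 0.32 ± 0.27, although it was among the probes called with LPS alone (log FC 2.46). Ccl4, a macrophage inflammatory protein gene, had a log FC of 0.65 ± 0.45 (0.35 without LPS plus hBD3 replicate 3 and 1.07 without LPS plus hBD3 replicate 1), and Ccl5, the gene of the chemokine RANTES, had a log FC of 0.07 ± 0.20. Il6 and Il12a were not detected on all 3 arrays of either group.

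Of 30 early cytokines and chemokines listed, 29 were measured and 12 were detected on all 3 arrays of at least 1 of the groups. The 3 array sets that did not overlap were those of Cxcl1, Cxcl2 and Tnf, which is 10.3% of the measured members against 5.6% of all 16791 genes. In all 3 same-number pairs 12 of the 29 were higher, against 16.7% of all genes. In the presence of hBD3 the 29 had a median log FC of 0.07, compared with 0.54 in its absence, against 0.01 for all genes in both cases. None was called with hBD3 present and 5 were called with LPS against untreated, against 0.149% of all genes.

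Among immediate early transcription factors, Egr1, a zinc finger factor induced through MAP kinase signaling, was at 6.61, 7.93 and 7.28 with hBD3 and at 7.78, 9.22 and 8.95 with LPS plus hBD3. The groups overlapped because hBD3 replicate 2 lay above LPS plus hBD3 replicate 1. Within pairs the difference was 1.17, 1.29 and 1.68 (log FC 1.38 ± 0.47), against 4.34 for LPS without hBD3. Ier3, an immediate early gene that modulates survival signaling, was at 8.81, 8.55 and 8.15 against 9.36, 9.48 and 9.42 (log FC 0.91 ± 0.16, adjusted p = 0.823 by limma), and its groups did not overlap. Fos, a subunit of AP-1, was at 7.07, 7.95 and 7.59 against 7.91, 8.48 and 8.63. The Fos groups overlapped by 1 array, with a log FC of 0.81 ± 0.30.

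The partner gene Junb had a log FC of 0.44 ± 0.28, with 9.98, 10.54 and 10.76 against 10.57, 10.86 and 11.16. Jun, also an AP-1 subunit, had a log FC of -0.54 ± 0.27, from 7.81, 8.50 and 8.94 with hBD3 to 7.60, 8.31 and 7.70 with LPS plus hBD3. Without hBD3 replicate 3, its high array, the log FC was -0.28, and without hBD3 replicate 1 it was -0.84. Irf1, a transcription factor of interferon responses, was at 10.25, 10.98 and 10.66 against 10.50, 11.27 and 11.35, a log FC of 0.41 ± 0.32. Csrnp1, a nuclear protein of the AXUD family, had a log FC of 0.23 ± 0.18, against 1.69 for LPS without the peptide. Of 26 measured members of the list 14 were detected. Arrays of 1 member (3.85%, below the 5.6% of all genes) did not overlap. This was Ier3, an immediate early gene listed with the transcription factors but not one itself. In all 3 pairs 11 members were higher, against 16.7% of all genes. The median log FC over the 14 detected members was 0.27 with hBD3 and 1.13 without it, against 0.02 and 0.03 for all detected genes. Over all 26 measured members it was 0.10 with hBD3 and 0.05 without it.

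Inhibitors of NF-κB, MAP kinase and cytokine signaling formed the list with most non-overlapping members, 7 of 24 measured (29.2%, against 5.6% of all genes). Nfkbiz and Nfkbid encode nuclear IκB proteins, which modulate NF-κB at its target genes. Nfkbiz was at 7.88, 8.20 and 7.85 with hBD3 and at 8.57, 9.27 and 9.90 with LPS plus hBD3 (log FC 1.27 ± 0.34). Nfkbid was tightly grouped, at 7.16, 7.17 and 7.29 against 7.98, 7.88 and 8.38. Its log FC of 0.87 ± 0.12 had the lowest p of the whole comparison (2.45e-05, adjusted p = 0.336, limma). It was also lower with hBD3 alone than in untreated cells (7.44, 7.69 and 7.47), by a log FC of -0.32 that did not pass the test. Nfkbia, the gene of the cytoplasmic inhibitor IκBα, had a log FC of 0.55 ± 0.25 and arrays that did not overlap. Nfkbie, another cytoplasmic IκB gene, had a log FC of 0.19 ± 0.60.

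Socs3, a suppressor of cytokine receptor signaling, was at 7.01, 7.37 and 6.82 against 7.78, 8.44 and 8.48 (log FC 1.16 ± 0.26). The MAP kinase phosphatase genes Dusp2 and Dusp1 also had groups that did not overlap. Dusp2 was at 7.21, 7.44 and 7.25 against 7.84, 8.34 and 8.18 (log FC 0.82 ± 0.26), and Dusp1 at 9.87, 10.06 and 9.46 against 10.36, 10.63 and 10.29 (log FC 0.63 ± 0.26). A further member with separate groups was Zc3h12a, whose product Regnase-1 degrades cytokine mRNAs, at 6.95, 7.02 and 6.81 against 7.74, 7.59 and 7.92 (log FC 0.83 ± 0.15). Its log FC without hBD3 was 1.48. Zfp36, which encodes the mRNA decay factor tristetraprolin, had a log FC of 0.84 ± 0.39 with groups that overlapped by hBD3 replicates 2 and 3, and one of 0.50 without hBD3 replicate 1. Tnfaip3, the gene of the ubiquitin-editing enzyme A20, had a log FC of 0.68 ± 0.27.

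Ppp1r15a, which encodes GADD34, a regulatory subunit for dephosphorylation of eIF2α, was at 9.14, 9.08 and 9.19 with hBD3 and at 9.35, 9.12 and 9.21 with both agents (log FC 0.09 ± 0.08). Without the peptide it went from 9.19, 9.17 and 9.17 to 10.15, 10.35 and 10.45, a log FC of 1.14 (adjusted p = 0.000116, limma). Over the 24 measured members of the feedback list, which includes Ppp1r15a, the median log FC was 0.22 with hBD3 and 0.92 without it. In all 3 pairs 14 were higher, against 16.7% of all genes.

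**Figure D2:**
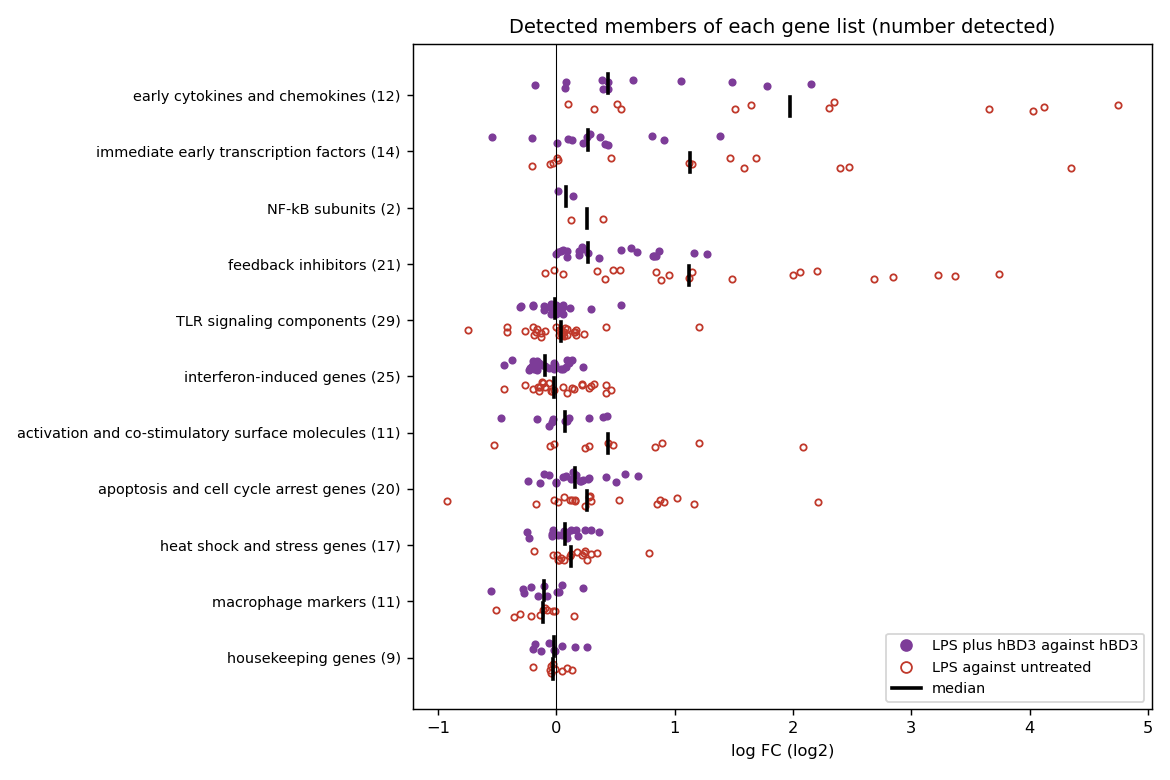
Log FC of the detected members of 11 gene lists for LPS plus hBD3 against hBD3 (filled) and for LPS against untreated (open); each point is a gene, vertical bars are medians, and points are spread vertically for legibility. The medians of the first group of genes, early cytokines and chemokines, lie at 0.44 (filled) and 1.98 (open), while those of TLR signaling components lie at -0.01 and 0.04.

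Of 31 measured receptor, adaptor and kinase genes of the TLR pathway 29 were detected, the median log FC was -0.01, and 0 passed the test. The LPS receptor genes Tlr4, Ly96 (MD-2) and Cd14 had log FC of -0.20 ± 0.22, -0.19 ± 0.16 and 0.02 ± 0.18. Cd14 was at 13.40, 12.96 and 13.03 with hBD3 and at 13.40, 12.94 and 13.12 with both, so that each pair was nearly equal. Arrays of 1 member (3.23%, below the 5.6% of all genes) did not overlap, those of Map3k8, the gene of the kinase TPL2 that links TLR4 to ERK, at 8.06, 8.47 and 8.21 against 8.62, 8.83 and 8.94 (log FC 0.55 ± 0.20). The adaptor Myd88 was at 11.30, 10.97 and 11.09 against 11.26, 11.19 and 10.96 (log FC 0.02 ± 0.12). The kinase gene Irak2 had a log FC of 0.00 ± 0.13 and the receptor gene Tlr2 one of 0.03 ± 0.41. Tlr2 differed between replicates in each group, from 11.39 to 12.78 with hBD3. At the lower end were Irak4 with -0.30 ± 0.16 and Tlr8 with -0.30 ± 0.52, the latter at -0.01 without hBD3 replicate 1.

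Of the activation and co-stimulatory molecules 11 of 12 were detected. None was called. Cd69, an early activation antigen, was at 6.46, 6.34 and 6.17 against 6.67, 6.67 and 6.82, with groups that did not overlap (log FC 0.39 ± 0.16, against 2.08 without the peptide). Cd274, the gene of the inhibitory ligand PD-L1, had nearly equal values in both settings, 0.43 ± 0.18 with hBD3 and 0.44 without it, and its arrays overlapped. Tnfrsf1b, a TNF receptor gene, was the 1 member whose arrays were all lower, at -0.46 ± 0.33 (3.95% of all genes had arrays without overlap in this direction). The co-stimulatory genes Cd40 and Cd86 had log FC of -0.04 ± 0.33 and 0.09 ± 0.58. Both were highest in replicate 1 or 2 and lowest in replicate 3 of each compared group.

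In the apoptosis and cell cycle list 4 of 29 measured members (13.8%) had higher arrays without overlap, against 5.6% of all genes. Lower arrays without overlap were seen for 1 member, against 3.95% of all genes. Phlda1, a regulator of cell survival, was at 7.37, 7.11 and 6.89 against 7.96, 7.66 and 7.83 (log FC 0.69 ± 0.14, adjusted p = 1 by limma). Nupr1, a stress-induced nuclear protein gene, had a log FC of 0.42 ± 0.15, also without overlap. The other higher members were Cdkn2b, a cyclin-dependent kinase inhibitor gene, at 0.27 ± 0.08 and the pro-apoptotic gene Bcl2l11 at 0.14 ± 0.15. Cdkn2b was detected on 2 of 3 hBD3 arrays and on 3 of 3 LPS plus hBD3 arrays. The growth arrest genes Gadd45b and Gadd45g had log FC of 0.58 ± 0.54 and 0.50 ± 0.33, with overlapping arrays, and Gadd45b was at 0.13 without hBD3 replicate 1. Plk2, a p53-responsive kinase gene, was nearly equal in each pair, with 7.66, 9.60 and 9.20 for hBD3 and 7.72, 9.53 and 9.19 with LPS plus hBD3. Among heat shock and stress genes, 1 of 25 (4%), the chaperone gene Hspa8 at 0.13 ± 0.06, had higher arrays without overlap, a share below the 5.6% of all genes. Another 1, Hsph1 at -0.25 ± 0.18, had lower arrays without overlap, against 3.95% of all genes. The largest log FC there was that of Gclm, a subunit gene of glutathione synthesis, at 0.36 ± 0.16, and Atf4, a factor of the integrated stress response, had 0.29 ± 0.16.

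No interferon-induced gene passed the test at 1 h. Of 32 measured members 25 were detected, the median log FC was -0.04, 1 (3.12%, against 5.6% of all genes) had higher arrays without overlap (Mx1, at 0.17 ± 0.08, not among the detected members), and 11 were lower in all 3 pairs, against 13.3% of all genes. Macrophage markers showed a median of -0.11 in this comparison and of -0.11 for LPS against untreated, and 6 of 11 were lower in all 3 pairs. Lower arrays without overlap were seen for 1 marker, Cd68 at -0.28 ± 0.20, against 3.95% of all genes. The summed signal of the 11 markers was 45610 to 48160 with hBD3 and 43830 to 47070 with LPS plus hBD3.

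Outside the lists, several genes were higher with LPS plus hBD3 than with hBD3 but about equal between LPS and untreated cells. Mgp, matrix Gla protein, was at 5.69, 6.30 and 6.86 against 6.06, 7.54 and 8.55, with overlapping groups. Its log FC was 1.10 ± 0.61, and -0.14 without hBD3. It was 0.52 without LPS plus hBD3 replicate 3 and 1.76 without LPS plus hBD3 replicate 1. Mgp was detected on 2 of 3 hBD3 arrays and 3 of 3 LPS plus hBD3 arrays, so it counted as detected only through the higher group. Ccn2, connective tissue growth factor, had a log FC of 0.72 ± 0.28 with groups that did not overlap, and Igfbp7 one of 0.71 ± 0.42, which was 0.33 without LPS plus hBD3 replicate 3 and 1.12 without LPS plus hBD3 replicate 1. These are genes of mesenchymal cells. The summed signal of the 8 measured stromal and erythroid markers was 387.5 to 418.9 with hBD3 and 388.7 to 450.5 with LPS plus hBD3. Of the 8, 6 were detected on 0 of the 6 arrays. Col1a1 was detected on 1 of 3 hBD3 and 2 of 3 LPS plus hBD3 arrays, at 5.98, 5.90 and 6.30 against 5.81, 6.30 and 6.77. Cxcl12 was detected on 2 of 3 arrays of each group, with a log FC of 0.07 ± 0.13. The part of such cells in these values was not tested. Pde1b, a phosphodiesterase gene, was at 8.77, 8.79 and 8.82 against 9.75, 8.87 and 10.40. The mean of Pde1b in untreated cells was 9.69, so that hBD3 alone was the lowest group (log FC -0.89 against untreated, adjusted p = 1). Without LPS plus hBD3 replicate 3 the log FC of Pde1b was 0.52, from 0.88. For Erdr1 the mean was also lowest with hBD3 alone, and the log FC was 0.87 ± 0.72. It was 0.34 without LPS plus hBD3 replicate 3 and 0.53 without hBD3 replicate 1. Sfi1 and Hnrnpdl likewise had their lowest mean with hBD3 alone, with log FC of 0.78 ± 0.33 and 0.72 ± 0.34 and overlapping arrays. Fscn1, the gene of an actin-bundling protein, had a small difference with little spread, 6.03, 5.89 and 5.96 against 6.35, 6.46 and 6.35 (log FC 0.43 ± 0.06, adjusted p = 0.336 by limma). Fscn1 was detected on 2 of 3 hBD3 arrays and on 3 of 3 LPS plus hBD3 arrays. Gng5, Pura and Olfr463 were also among the 10 genes with the smallest p, at 0.42 ± 0.08, 0.28 ± 0.06 and 0.24 ± 0.05. Pura and Olfr463 were detected on 0 of the 6 arrays.

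A single probe of Actb, the β-actin gene, had a log FC of 2.18. It read 7.53, 10.53 and 9.57 on the hBD3 arrays and 11.57, 11.29 and 11.31 on the LPS plus hBD3 arrays, whereas the brightest Actb probe had a log FC of -0.01 ± 0.15. The probe also differed between the untreated arrays, from 7.57 to 10.99. The housekeeping gene Gapdh had a log FC of -0.20 ± 0.16 by its brightest probe.

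No gene had a log FC below -1. The lowest was -0.85 for Ctsa, the gene of the lysosomal carboxypeptidase cathepsin A, at 9.54, 9.46 and 10.31 with hBD3 and 7.87, 9.11 and 9.79 with LPS plus hBD3. LPS plus hBD3 replicate 1 was the low array for Ctsa, for the elongation factor gene Eef2, for Rab1b, for Msn and for Sirpa, and LPS replicate 1 was the lowest array of all for each of these genes (5.72 for Ctsa and 6.44 for Eef2). Without LPS plus hBD3 replicate 1 the log FC of Ctsa was -0.32, that of Eef2 -0.05, that of Rab1b -0.08, that of Msn -0.26 and that of Sirpa -0.04. For Usp5, Derl2 and Basp1 it was hBD3 replicate 3 that stood high, at 8.62, 9.03 and 8.85. Without that array their log FC were -0.30, -0.09 and -0.02, from -0.62, -0.57 and -0.67. Lcp1 (L-plastin) and Capzb (a subunit of the actin-capping protein) had groups that did not overlap, at -0.63 ± 0.42 and -0.58 ± 0.23. The groups of Usp5 did not overlap either, and 3.95% of all genes were lower without overlap. For Lcp1 and Capzb too, LPS replicate 1 was the lowest array of all (8.24 and 10.015). Of the hBD3 arrays, replicate 3 was the highest for both (10.64 and 11.61). Another Capzb probe was at -0.44 without overlap, and yet another at -0.10 with overlap. Gapvd1, a regulator of endocytosis, was at 10.03, 10.09 and 9.99 against 9.77, 9.83 and 9.69, a small difference with little spread (log FC -0.27 ± 0.06, adjusted p = 1 by limma).

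**Figure D3:**
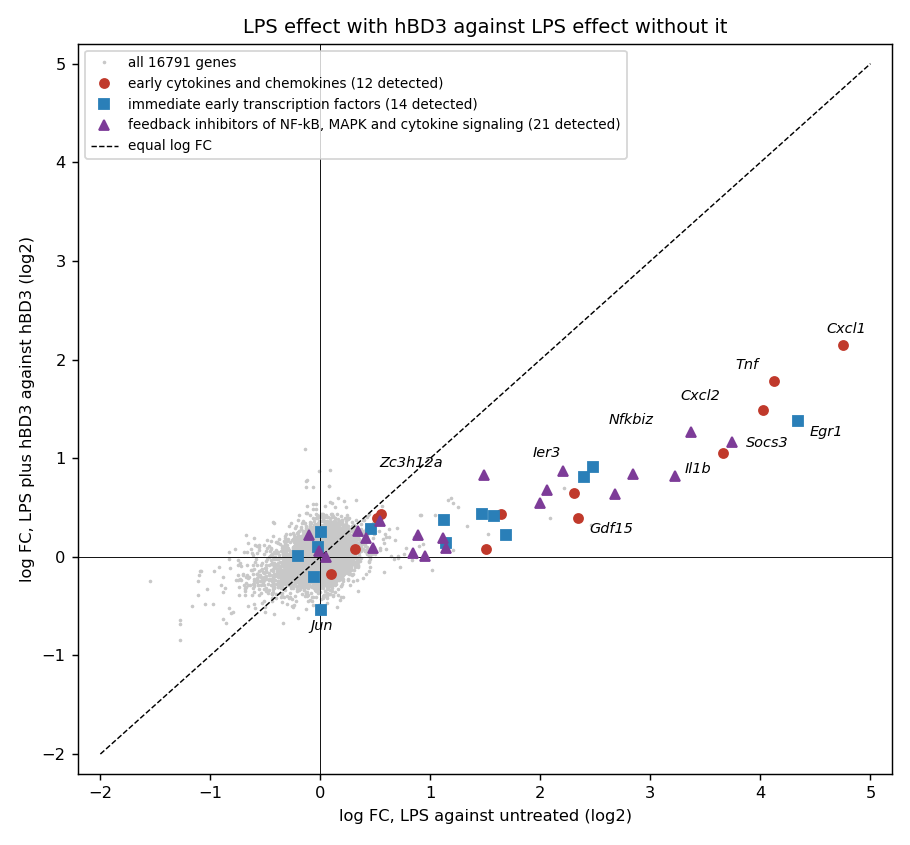
Log FC of LPS plus hBD3 against hBD3 (vertical axis) plotted against log FC of LPS against untreated (horizontal axis), both in log2 units; gray points are all 16791 genes, coloured symbols are detected members of 3 gene lists and the dashed line marks equal values. Cxcl1 lies at 4.75 and 2.15, and the coloured symbols to the right of 1 all lie below the dashed line.

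The LPS effect with hBD3 was then set beside the LPS effect without it. These comparisons share no array, although arrays of the same replicate number vary together. LPS against untreated gave 27 higher probes (0.105% of 25697) of 26 genes and 0 lower, or 71 higher and 1 lower with the replicate block. All 27 probes had a positive log FC for LPS plus hBD3 against hBD3, against 50.4% of all probes. In 17 of the 27 (63%) the LPS plus hBD3 arrays all lay above the hBD3 arrays, against 5.27% of all probes, and in 0 they all lay below, against 4.47%. In all 3 pairs 26 of 27 were higher, against 15.3% of all probes. The LPS effect that chose the probes was measured on the other arrays, but its error came from the fit to all 12, so that a low spread on the compared arrays favoured a probe. A fit of only the LPS and untreated arrays, added after seeing the data, called 6 probes, of Cxcl1, Ier3, Ppp1r15a, Nfkbid, Phlda1 and Socs3, of which all but Ppp1r15a had arrays without overlap. The 27 had a median log FC of 0.68 with hBD3 and 2.34 without it, where the second value is raised by the choice of the probes. When arrays were scaled to equal medians in place of quantile normalization, 24 of the 27 stayed positive with a median of 0.35, while the median of the 6561 detected genes moved from 0.02 to -0.24. The 3 that turned negative were Dusp8, Ppp1r15a and Sgk1.

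**Figure D4:**
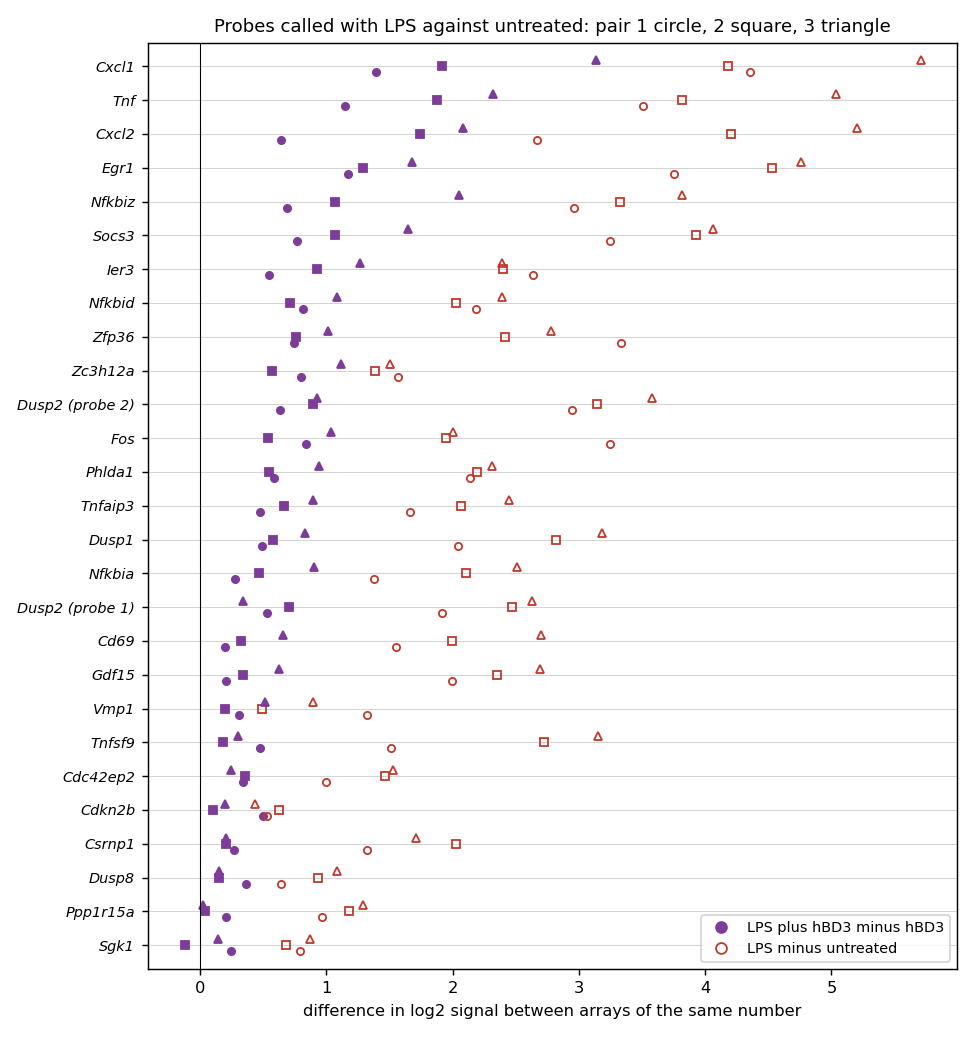
Difference in log2 signal (horizontal axis) between arrays of the same replicate number for the 27 probes called with LPS against untreated, 1 probe per line; filled symbols are LPS plus hBD3 minus hBD3, open symbols LPS minus untreated, and circles, squares and triangles are pairs 1, 2 and 3. In 26 of the 27 lines all 3 filled symbols lie above 0, the exception being Sgk1.

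As a measure of size, the log FC with hBD3 was expressed as a share of the log FC without it, by a line through the origin over the detected members of a list. The share was 36.3% ± 16.9 (SD over 3 pairs) for the 12 early cytokines and chemokines. It was 30.6% ± 7.3 for the 14 members of the immediate early list, Ier3 included, and 30.4% ± 10.2 for the 21 of the feedback list. For a pair, its own difference with hBD3 was set against the mean log FC without hBD3, not against the LPS effect of that pair. The SD therefore leaves out the spread of the LPS effect without hBD3. Measured in this way, in each list pair 3 gave the highest value (53.4%, 39.0% and 42.1%) and pair 1 the lowest (19.6%, 26.1% and 22.8%). Across the 47 detected members of these lists the log FC with and without hBD3 correlated at Pearson's r = 0.906 and Spearman's rho = 0.86. Across all 6561 detected genes the values were 0.493 and 0.318, and across all 16791 genes 0.402 and 0.178. These describe genes on the same arrays, which are not independent replicates, and members of the lists are known LPS targets.

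The difference between the LPS effects, (LPS plus hBD3 minus hBD3) minus (LPS minus untreated), was tested directly. Of 25697 probes 0 passed an adjusted p of 0.05 (0%), the lowest adjusted p being 0.0585 for Ppp1r15a (limma), and at an unadjusted p under 0.05 there were 292 higher and 365 lower. With the replicate block 20 probes of 18 genes had a smaller LPS effect with hBD3 (0.0778% of probes) and 0 had a larger one. Dusp2, Egr1, Gdf15 and Phlda1 had the lowest blocked adjusted p, 0.00156 each. The difference was -2.96 for Egr1, whose blocked standard error was 0.24 against 0.66 without the block. For Socs3 it was -2.58 (blocked adjusted p = 0.00284, limma) and for Ier3 -1.56 (0.0055). The other genes called in this way were Irf1, Csrnp1, Junb, Ppp1r15a, Nfkbid, Zfp36, Dusp1, Plk2, Cdc42ep2, Tnfaip3, Cd69 and Nfkbie, at differences from -0.88 to -2.05. Cxcl1, Tnf and Cxcl2 had differences of -2.60, -2.34 and -2.54 with blocked standard errors of 0.47, 0.37 and 0.55, at blocked adjusted p of 0.151, 0.083 and 0.426.

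For hBD3 against untreated 0 probes were called in either direction, also with the replicate block (254 higher and 359 lower at an unadjusted p under 0.05, limma), and 0 probes had a log FC beyond 1. The hBD3 arrays are shared by this comparison and the main one, so their values are given side by side: Cxcl1 was at -0.01, Tnf at 0.05 and Egr1 at 0.42 for hBD3 against untreated, and at 2.15, 1.78 and 1.38 for LPS plus hBD3 against hBD3.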

How the data were processed

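Macrophage RNA was hybridised to Illumina MouseRef-8 arrays, 3 for each of 4 treatments. The authors deposited summarised probe intensities on a linear scale without normalization, each with a detection p-value. They also deposited a value table of quantile-normalized intensities, which was used as an alternative. Per the processing notes of the submitters limma was used, with no version stated. The chip that held each array is not given in the sources used here.

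Deposited intensities were quantile normalized and transformed to log2. A linear model with 1 mean per group was fitted to all 12 arrays with limma 3.58.1 in R 4.3.3, followed by empirical Bayes moderation and Benjamini-Hochberg adjustment over 25697 probes, with adjusted p under 0.05 as the threshold. Errors after ± are standard errors of this fit, without the replicate block, unless named otherwise. For LPS plus hBD3 against hBD3 the median standard error over detected probes was 0.1425 in this fit. With the replicate block it was 0.1027, so that the errors given are wider for many genes. The procedure was tested on simulated data. A gene was represented by its brightest probe (16791 genes, of which 4803 had several probes), and it counted as detected when the detection p was under 0.01 on all 3 arrays of hBD3 or of LPS plus hBD3 (6561 genes). The probe annotation gave 1 symbol for 23978 probes and none for 1719, of which 231 were named from a table of the study. Arrays carry no read depth, and their number limits the precision.

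The design gives separate mice within a group. The labels do not say whether arrays of the same number share a mouse. The deviations of same-number arrays from their group means correlated at 0.15 to 0.772 over 7893 probes. For 12 of 12 arrays the mean correlation with arrays of the other groups was highest for the own replicate number. The numbers were therefore taken to pair the arrays, and the replicate number was fitted as a block as an alternative. Other alternatives were median scaling, background correction (neqc, offset 16), the deposited value table, a filter on detection, only the groups compared, trended and robust variance, array weights and leaving out each array.

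The gene lists and the genes to describe were chosen with earlier results of these data known. The naming rule took the 20 highest and 10 lowest log FC among detected genes, the 10 smallest p and the 4 largest absolute log FC of each list. It also took the genes the study names at 1 h and the controls Actb and Gapdh. Not every gene it took is described. Gdf15, Irf1, Csrnp1, Junb, Ppp1r15a, Dusp1, Plk2, Cdc42ep2, Tnfaip3, Nfkbie, Nfkbia, Dusp8, Sgk1, Cd63 and Cd14, and any member named for non-overlapping arrays, were named after their values were seen. Ccl4, Tlr4 and Ly96 were also named outside the rule. Promoter windows came from RefSeq, with the first window listed for a gene.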

Additional observations from a re-analysis of the deposited data

Results flagged for a closer look

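With the replicate number as a block, 20 probes of 18 genes had an LPS effect that differed between cells with and without hBD3, at adjusted p from 0.00156 to 0.0322 (limma). All 20 were smaller with hBD3. Without the block 0 probes passed. In log2 units, as the effect with hBD3 minus the effect without it, genes of the immediate early list gave -2.96 for Egr1, -1.56 for Ier3, -1.46 for Csrnp1, -1.03 for Junb, and -1.44 and -1.17 for the 2 probes of Irf1. The feedback genes gave -2.4 and -1.81 for the 2 probes of Dusp2, -2.58 for Socs3, -2.05 for Dusp1, -2 for Zfp36, -1.38 for Tnfaip3, -1.33 for Nfkbid, -1.06 for Ppp1r15a and -0.93 for Nfkbie. The remaining genes gave -1.95 for Gdf15, -1.69 for Cd69, -1.52 for Phlda1, -1.02 for Cdc42ep2 and -0.88 for Plk2.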

How the results depend on the processing

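For LPS plus hBD3 against hBD3, 0 probes were called under every alternative but 1. With the replicate block and without hBD3 replicate 1, 2 probes were called, of Cd63 (log FC 1.04, adjusted p = 0.00276) and Ier3 (1.05, adjusted p = 0.0331, limma). The number of probes whose LPS effect differed with hBD3 depended on the setting, with 5 under median scaling, 7 over detected probes, 8 with trended and robust variance, 12 with array weights and 20 with the replicate block, against 0. Without single arrays it was 0 to 17, the 17 without LPS replicate 1 and 1 without LPS plus hBD3 replicate 3. With the block it was 22 over detected probes, 14, 7 and 16 without hBD3 replicates 1, 2 and 3, and 11, 10 and 12 without LPS plus hBD3 replicates 1, 2 and 3. These settings with the block and a second change were chosen after seeing the data. For LPS against untreated 27 probes became 72 with the block, 6 in a fit of only these groups, 44 with array weights, and 19 to 44 without single arrays, the 44 without LPS replicate 1. For hBD3 against untreated it was 0 throughout. Under median scaling the share of the LPS response was 18.17% for immediate early transcription factors and 17.23% for feedback inhibitors, and without single arrays the former was 22.83% (without hBD3 replicate 1) to 40.62% (without LPS plus hBD3 replicate 1). Of the gene values, 1397 kept their direction and 42 reversed. Many of the 1397 could not change. Leaving out an untreated or LPS array does not alter the log FC of LPS plus hBD3 against hBD3. Nor do the replicate block, the fit of only the groups compared, trended and robust variance or the filter on detection. Under median scaling, which moved the median of detected genes from 0.02 to -0.24, the log FC was -0.0555 for Dusp8, -0.0939 for Nfkbie, -0.1506 for Bcl2l11, -0.2222 for Cd86, -0.2117 for Ppp1r15a, -0.0959 for Sgk1, -0.2331 for Ccl5, -0.2082 for Tlr2, -0.1594 for Cd14 and -0.238 for Myd88. Irak2 was at 2e-04 under background correction (neqc). Irak2 was at 0.0132 under array weights. Without single arrays the log FC ranged from -0.1872 to 0.0961 for Actb, from -0.0298 to 0.2148 for Ccl5, from -0.0983 to 0.1578 for Cd14, from -0.2876 to 0.2504 for Cd40, from -0.2542 to 0.535 for Cd86, from -0.1338 to 0.0923 for Irak2, from -0.0583 to 0.1054 for Myd88, from -0.2466 to 0.6898 for Nfkbie, from -0.5876 to 0.5388 for Plk2 and from -0.298 to 0.4123 for Tlr2. The cause was not tested.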
